A study of Bos taurus with 15 samples.

Results

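Milk fat synthesis was followed through 5 enzyme genes of the bovine mammary gland, namely ACACA (listed as ENSBTAG00000017567), FASN (ENSBTAG00000015980), SCD (ENSBTAG00000045728), GPAM (ENSBTAG00000011917) and DGAT1 (ENSBTAG00000026356). The members were chosen by identifier, for their place in the pathway and not for their values, although earlier results of these data were known. All 5 were found among the 24616 identifiers of the deposited table. The table pairs no identifier with a name, so the symbols are those that came with the choice of members and were not checked against an annotation here. Mammary tissue was taken by needle biopsy from 4 non-pregnant Holstein cows in their second lactation, just before (0 h) and 12, 24 and 72 h after dexamethasone (DEX), a glucocorticoid drug given once into muscle at 40 mg, and all cows also received prophylactic ampicillin. Cows 2, 3 and 4 have all 4 time points, and cow 1 has libraries at 0, 12 and 24 h only. It is taken to be the cow that had stopped ruminating by 24 h after DEX and was later withdrawn. At 24 h that cow gave milk only after oxytocin, so its 24 h library would come from that state. There were no untreated cows, and each time point came from a different gland of the udder, the same gland in every cow, so that time after DEX and gland cannot be told apart. The tissue label was not checked against cell type markers, because none could be matched to an identifier, and in whole biopsies fewer secretory cells and less RNA per cell cannot be told apart.

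Milk fat is largely triacylglycerol. The ruminant mammary epithelium builds the short and medium chains of its fatty acids from acetate and 3-hydroxybutyrate. Acetyl-CoA carboxylase, encoded by ACACA, makes malonyl-CoA, and fatty acid synthase, encoded by FASN, uses it to extend the growing chain. Stearoyl-CoA desaturase, encoded by SCD, places a double bond in long saturated chains and so makes oleic from stearic acid. The mitochondrial glycerol-3-phosphate acyltransferase encoded by GPAM joins the first fatty acid to the glycerol backbone, and the diacylglycerol acyltransferase encoded by DGAT1 joins the last one.

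Expression was measured with QuantSeq libraries, in which a read marks the 3′ end of a transcript, so levels of different genes were compared without division by length. Values are the deposited normalized counts, in which each library's reads were scaled by a single factor. Between 1804120 and 6228132 reads per library fell on genes, and 1 read was worth between 0.155 and 0.579 normalized counts. The 5 members together took between 0.309% and 1.1% of the reads of a library. Differences were tested with limma on log2 values (normalized count plus 0.5) in the 12 libraries of cows 2 to 4, for all 13525 genes with a read in them. The model allowed for correlation between libraries of 1 cow, and p-values were adjusted by Benjamini-Hochberg over these genes.

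The 5 genes covered 4 orders of magnitude. FASN averaged 5703 normalized counts over the 12 libraries, which placed it at number 15 of the 13525 genes, and GPAM averaged 2328 and was number 22. SCD averaged 7.86 normalized counts and was number 3426. ACACA averaged 1.75 and DGAT1 0.621, and these were numbers 6456 and 8300. The order FASN, GPAM, SCD, ACACA, DGAT1 held in 12 of 12 libraries of cows 2 to 4 and in 13 of all 15. FASN rested on 9238 to 43969 reads per library and GPAM on 1358 to 18687, whereas SCD rested on 7 to 83, ACACA on at most 10 and DGAT1 on at most 6. A read counts for a gene only where the annotated gene reaches the 3′ end of its transcript, and whether it does so for SCD, ACACA and DGAT1 was not tested. Their counts are therefore compared here between time points and not read as how abundant these transcripts are. Whether a change in these few reads follows that of all transcripts of the gene was also not tested.

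**Figure D1:**
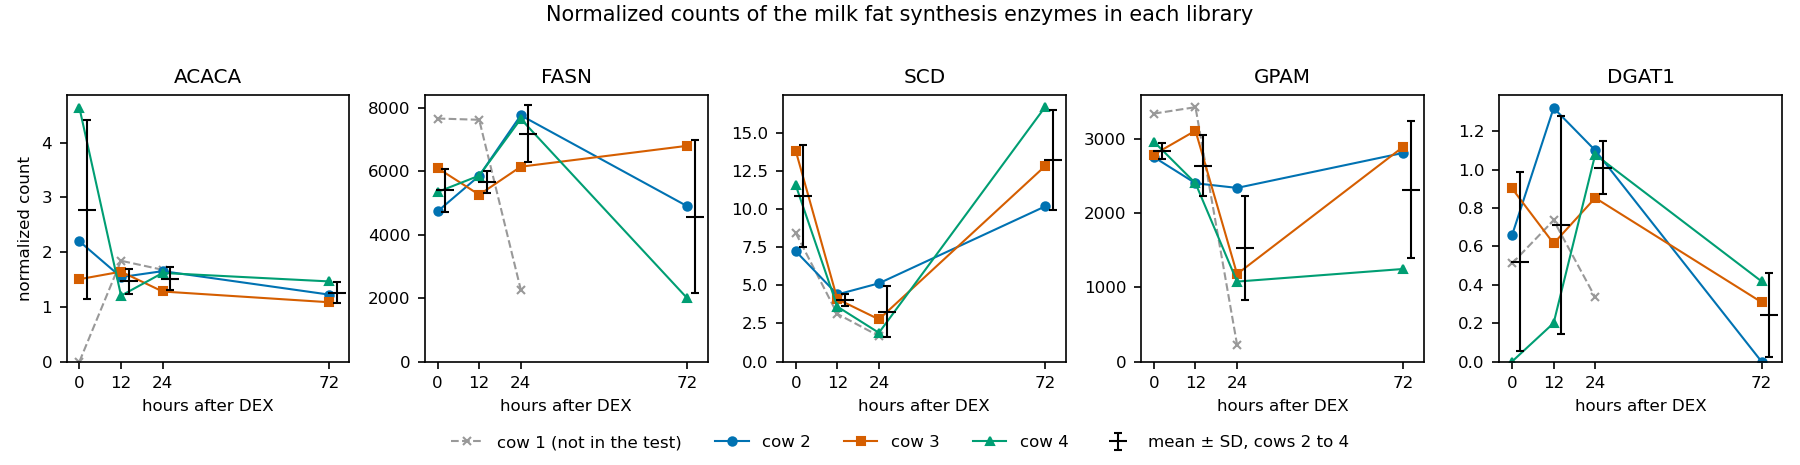
Normalized count of each enzyme gene (vertical axes, linear and starting at 0, with a different scale in each panel) against hours after DEX. Each coloured line joins the libraries of 1 cow, with cow 1 dashed, and black bars give the mean ± SD of cows 2 to 4 slightly to the right of each time. SCD is low at 12 and 24 h in all 4 cows and back at 72 h, GPAM is lowest at 24 h in all 4 cows, and ACACA and DGAT1 rest on at most 10 reads per library.

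SCD was the 1 member of 5 that passed limma's threshold in any comparison. It fell at 12 h and at 24 h and stood near its starting level at 72 h. Its normalized counts in cows 2, 3 and 4 were 7.24, 13.8 and 11.6 before DEX. They were 4.41, 4.10 and 3.61 after 12 h, 5.14, 2.77 and 1.89 after 24 h and 10.2, 12.8 and 16.7 after 72 h. All libraries at 12 and 24 h lay below all libraries at 0 and 72 h. Cow 1 was also lower after DEX, with 8.44, 3.13 and 1.68 normalized counts at 0, 12 and 24 h, and it did not change the separation of the time points. Among all genes tested, 5.24% were lower than 0 h without overlap in the 4 cows at 12 h and 3.62% at 24 h. In cows 2 to 4, 7.39% were higher at 72 h than at 12 h without overlap, and 7.94% were higher than at 24 h.

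The mean SCD level before DEX was 10.9 ± 3.35 normalized counts (SD, n = 3 cows), and by 12 h it was 4.04 ± 0.403, which is 62.9% lower. On the log2 scale this is a fold change of -1.28 (standard error 0.33, 95% interval -1.98 to -0.58, adjusted p = 0.037 in limma). At 24 h the mean was 3.27 ± 1.68, which is 70.0% lower than at 0 h, and the log2 fold change was -1.64 (standard error 0.33, 95% interval -2.34 to -0.94, adjusted p = 0.0119 in limma). Thus 1 of 5 members was called lower at each time, where 1.61% of all genes tested were called lower at 12 h and 0.776% at 24 h. With the added 0.5, fold changes of a gene this low are understated. The ratio of means, 0.371 at 12 h and 0.3 at 24 h, has no such addition.

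The fall in SCD was unequal between cows. At 24 h, cow 2 retained 0.709 of its level at 0 h, whereas cow 3 retained 0.2, cow 4 retained 0.163 and cow 1 retained 0.199. At 12 h these shares were 0.608 in cow 2 and between 0.297 and 0.371 in the other cows. Counting error alone is sizeable here, since the 3 cows together gave 99, 58, 48 and 188 SCD reads at the successive times. Pooled over these cows, the level was 10.3 normalized counts at 0 h (95% exact Poisson interval 8.37 to 12.5) and 3.47 at 24 h (2.56 to 4.59). These intervals cover counting error only. Taken for SCD alone, an exact sign-flip test on the change per cow gave p = 0.125 at 12 h and at 24 h with all 4 cows, all of them lower, which is the smallest p that 4 cows allow.

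Between 24 h and 72 h SCD rose in 3 of 3 cows, by 1.93 on the log2 scale (95% interval 1.23 to 2.63, adjusted p = 0.00281 in limma). The rise was 1.98-fold in cow 2, 4.63-fold in cow 3 and 8.86-fold in cow 4. From 12 h to 72 h it rose by 1.58 on this scale (adjusted p = 0.0105 in limma). SCD was again the 1 member called, where limma called 1.18% of all genes higher at 72 h than at 24 h and 1.42% higher than at 12 h. The mean at 72 h was 13.3 ± 3.29 normalized counts, and the difference from 0 h, 0.29 on the log2 scale, was not past the threshold (95% interval -0.41 to 0.99, adjusted p = 0.871 in limma). That interval leaves room for a level at 72 h up to 0.99 higher or 0.41 lower on the log2 scale. The difference between 12 h and 24 h was also not past the threshold, at -0.36 (95% interval -1.06 to 0.34, adjusted p = 0.759 in limma).

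The SCD calls rested on both cow 3 and cow 4. Leaving out cow 3 gave limma's adjusted p as 0.375 for 12 h and 0.244 for 24 h, and leaving out cow 4 gave 0.239 and 0.243, although the log2 fold changes stayed between -1.40 and -1.11. Without cow 2, whose change was the smallest, both calls held, with log2 fold changes of -1.60 and -2.24 (adjusted p = 0.043 and 0.0189 in limma). The fits without a cow called fewer of all genes, 1.29% to 1.56% at 12 h and 0.601% to 0.759% at 24 h. With cows 2 to 4 together these shares were 3.88% and 2.31%. Leaving out cow 3 or cow 4 also ended the calls of the rise to 72 h, and without the 72 h library of cow 4 alone, a setting chosen after seeing the data, the rise from 12 h had an adjusted p of 0.0583 in limma.

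**Figure D2:**
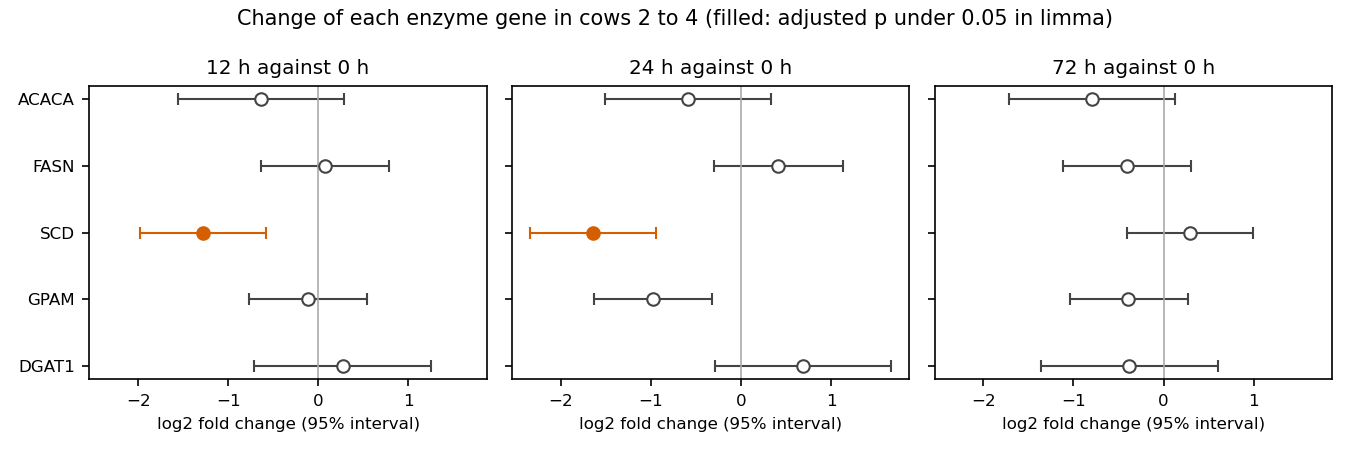
Fitted log2 fold change of each gene (horizontal axes, log2 of normalized count plus 0.5) at 12, 24 and 72 h against 0 h in cows 2 to 4. Bars are 95% intervals from limma, and filled points have an adjusted p under 0.05. SCD is filled at 12 and 24 h, and the interval of GPAM at 24 h, -1.63 to -0.32, also lies below 0 before adjustment.

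GPAM, which starts glycerolipid assembly, was close to its starting level at 12 h and lower at 24 h in every cow, but its adjusted p missed the threshold. Before DEX its normalized counts in cows 2, 3 and 4 were 2751, 2785 and 2958, for its size the narrowest spread of any member. After 24 h they were 2336, 1177 and 1076, and all of these lay below every library at 0 h. Cow 1 had 3337, 3423 and 227.5 normalized counts at 0, 12 and 24 h, the last being the lowest GPAM value of the 15 libraries and 0.0682 of its own starting level. As for SCD at 24 h, this separation over 4 cows stands beside 3.62% of all genes tested.

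The mean of GPAM in cows 2 to 4 was 2831 ± 111, 2635 ± 408, 1530.0 ± 700.3 and 2315 ± 927 normalized counts (SD, n = 3 cows) at 0, 12, 24 and 72 h. At 24 h it was 46.0% lower than at 0 h, which is -0.98 on the log2 scale (standard error 0.31, 95% interval -1.63 to -0.32, unadjusted p = 0.00575, adjusted p = 0.131 in limma). With cow as a fixed term the same fold change had an adjusted p of 0.0411 in limma. A fit to all 15 libraries, which adds cow 1, taken to be the withdrawn cow, with its change of -3.87, gave -1.70 (adjusted p = 0.0418 in limma). On recovered reads the adjusted p was 0.0499 with limma-voom, 0.00178 with DESeq2 and 9.94e-08 with edgeR's quasi-likelihood test. In all, 8 of 18 alternatives put GPAM past the threshold at 24 h, and the log2 fold change was negative in all of them, between -1.70 and -0.74. The alternatives share libraries and are not separate tests. Without cow 2, cow 3 or cow 4 the fold change was -1.35, -0.85 and -0.74 (adjusted p = 0.151, 0.474 and 0.484 in limma). An exact sign-flip test over the 4 cows gave p = 0.125, the smallest they allow.

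Cow 2 again changed least, keeping 0.849 of its GPAM level at 24 h, against 0.423 in cow 3 and 0.364 in cow 4. The 12 h value was -0.11 on the log2 scale (95% interval -0.77 to 0.54, adjusted p = 0.946 in limma), and 2 of 4 cows were lower. The step from 12 h to 24 h was -0.86 (unadjusted p = 0.0126, adjusted p = 0.252 in limma), and it passed the threshold with edgeR and DESeq2 on recovered reads. By 72 h GPAM was at 2808 normalized counts in cow 2 and 2891 in cow 3 (1.02 and 1.04 times their levels at 0 h). In cow 4 it was still at 1246, which is 0.421 of its level at 0 h.

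**Figure D3:**
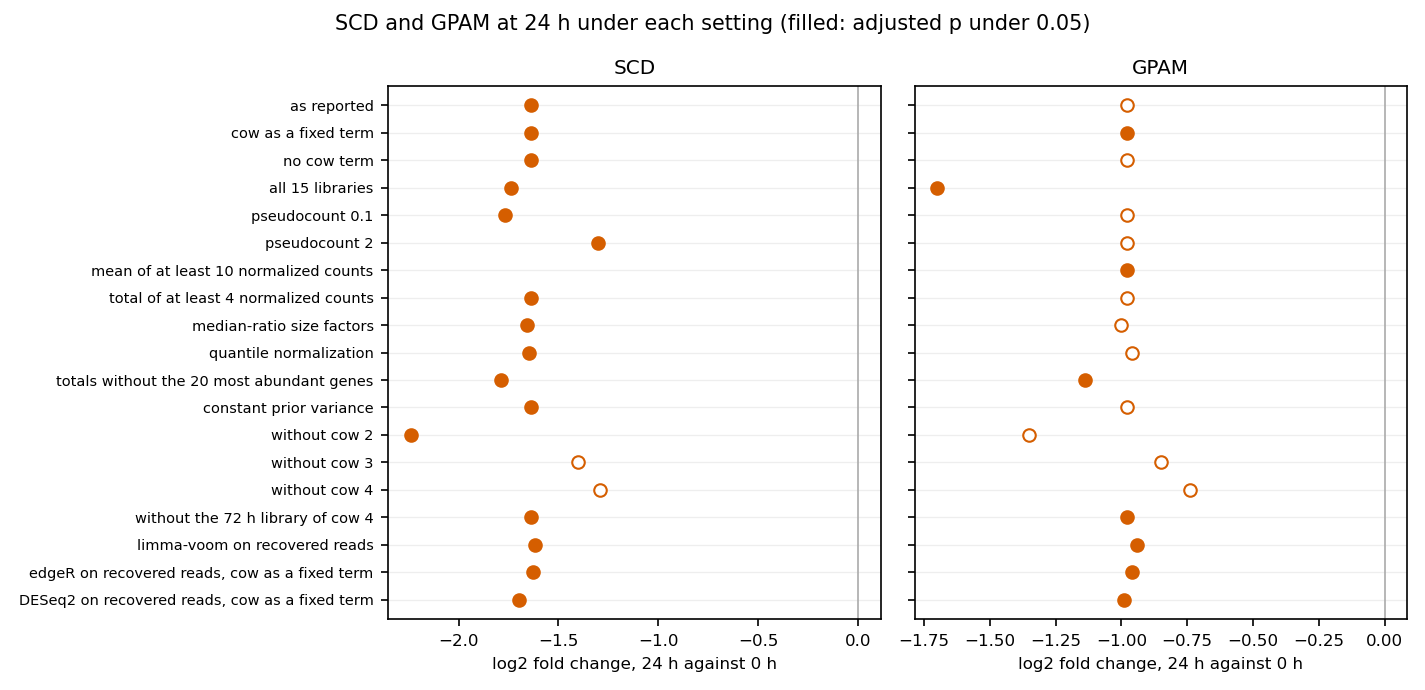
Log2 fold change of SCD and GPAM at 24 h against 0 h (horizontal axes) under the reported setting and each of the 18 alternatives (rows), with filled points where the adjusted p was under 0.05. SCD is filled except without cow 3 or cow 4 and has no point for the filter at a mean of 10 normalized counts, which it did not reach. GPAM is filled in 8 of the 18 alternatives and open as reported.

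FASN, the largest of these genes by count, did not pass limma's threshold in any comparison, and it passed from 24 h to 72 h with edgeR. Its normalized counts in cows 2, 3 and 4 were 4737, 6100.3 and 5348 before DEX and 5857, 5261 and 5863 after 12 h. After 24 h they were 7766, 6145 and 7652, so that these cows lay just above all of their libraries at 0 h. The gap was narrow, since cow 3 at 24 h exceeded its own value at 0 h by a ratio of only 1.01, and 8.0% of all genes tested were higher at 24 h without overlap in these 3 cows. Cow 1 went the other way, with 7665, 7625 and 2269 at 0, 12 and 24 h.

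The mean of FASN was 5395 ± 683, 5660.3 ± 346, 7188 ± 905 and 4569 ± 2418 normalized counts (SD, n = 3 cows) at 0, 12, 24 and 72 h. The 12 h value differed from 0 h by 0.08 on the log2 scale (95% interval -0.64 to 0.79, adjusted p = 1 in limma), and the 24 h value by 0.41 (95% interval -0.30 to 1.13, adjusted p = 0.678 in limma). With cow 1 added, the value at 24 h turned to -0.13 (adjusted p = 0.952 in limma). At 72 h cows 2 and 3 were at 4902 and 6803 normalized counts and cow 4 was at 2001, which is 0.374 of its level at 0 h. Its difference from 0 h was -0.40 on the log2 scale (95% interval -1.12 to 0.31, adjusted p = 0.843 in limma), and it was 0.10 without cow 4. From 24 h to 72 h it was -0.82 (95% interval -1.53 to -0.10, unadjusted p = 0.0278, adjusted p = 0.254 in limma). edgeR's quasi-likelihood test on recovered reads, with cow as a block, gave -0.73 for that step with an adjusted p of 6.43e-05. It was the only 1 of 18 alternatives that put this step past the threshold, and DESeq2 on the same reads gave -0.72 (adjusted p = 0.272). FASN rose over this step in cow 3, by a ratio of 1.11. Without cow 4 the step was -0.26 (adjusted p = 0.839 in limma).

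The lowest values of FASN thus fell in a pair of libraries, that of cow 1 at 24 h and that of cow 4 at 72 h. GPAM was also low in both. SCD took different values in them, 1.68 normalized counts, its lowest, in the first and 16.7, its highest, in the second. These libraries also had the lowest deposited totals, 808404 and 781910 normalized counts against 879726 to 1254962 in the other 13. The 20 most abundant genes, FASN among them, took 77.4% and 77.6% of their reads, against 77.9% to 84.4% elsewhere. The part of these differences in the FASN and GPAM values was not tested. When the libraries were scaled by totals without those 20 genes, FASN at 24 h was 0.25 and GPAM -1.14 from 0 h on the log2 scale (for GPAM adjusted p = 0.0378 in limma), where the median gene was at -0.0898 instead of 0.067.

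Ratios between members within a library do not depend on how libraries are scaled. For each 100 FASN reads, GPAM had 58.1, 45.7 and 55.3 reads before DEX in cows 2, 3 and 4. It had 41.0, 59.1 and 40.9 after 12 h, 30.1, 19.2 and 14.1 after 24 h, and 57.3, 42.5 and 62.2 after 72 h. Cow 1 had 43.5, 44.9 and 10.0 at 0, 12 and 24 h. In all 4 cows, therefore, the lowest GPAM to FASN ratio was that of 24 h, and in cow 4 at 72 h both genes were low at a ratio of 62.2, above that of 0 h. Both genes move this ratio. In normalized counts, cow 2 at 24 h had 1.64 times its 0 h level of FASN and 0.849 of its GPAM. FASN at 24 h was 1.01 times its 0 h level in cow 3, 1.43 times in cow 4 and 0.296 times in cow 1.

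The mean ratio in cows 2 to 4 was 53.0 ± 6.5, 47.0 ± 10.5, 21.1 ± 8.17 and 54.0 ± 10.3 GPAM reads per 100 FASN reads (SD, n = 3 cows) at 0, 12, 24 and 72 h. The change at 24 h was -1.57 ± 0.56 on the log2 scale over 4 cows (SD), lower in 4 of 4, with p = 0.125 in an exact sign-flip test. For SCD the mean was 1.99 ± 0.399, 0.716 ± 0.0883 and 0.453 ± 0.207 reads per 1000 FASN reads at 0, 12 and 24 h. This ratio was lower in 4 of 4 cows at both times. Against GPAM instead, SCD at 12 h was also lower in 4 of 4 cows, but at 24 h it was lower in 3 of 4. Cow 1 went from 2.53 to 7.36 SCD reads per 1000 GPAM reads between 0 and 24 h, while its GPAM reads went from 13050 to 1358. The change at 24 h was -0.24 ± 1.25 on the log2 scale over the 4 cows (SD, p = 0.875 in an exact sign-flip test) and -0.83 ± 0.5 in cows 2 to 4. Against FASN at 72 h, SCD had 2.08, 1.89 and 8.36 reads per 1000 FASN reads in cows 2, 3 and 4. In the last of these FASN was low and SCD high.

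**Figure D4:**
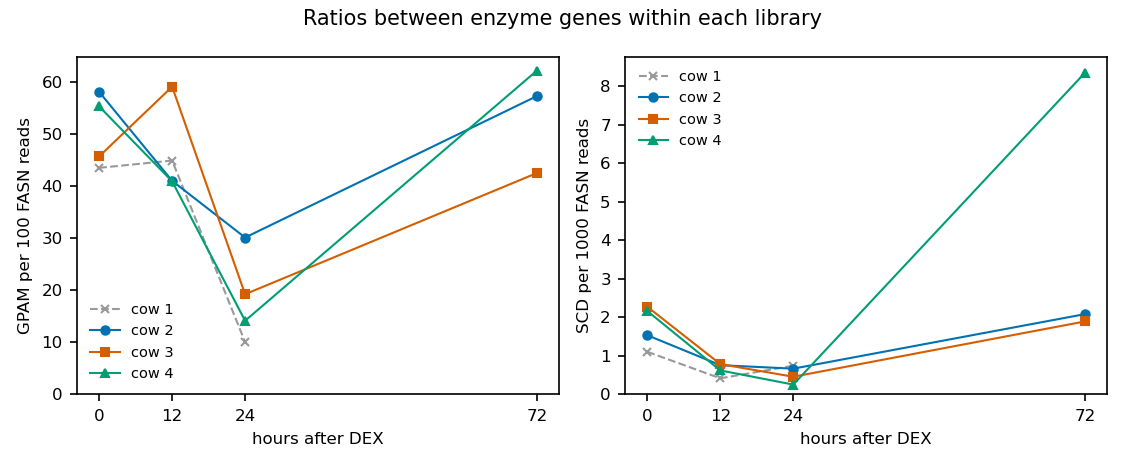
Reads of GPAM per 100 FASN reads (left) and of SCD per 1000 FASN reads (right) in each library, against hours after DEX, with a line for each cow and axes starting at 0. The GPAM ratio is lowest at 24 h in all 4 cows, between 10.0 and 30.1, and the SCD ratio is below its 0 h value at 12 and 24 h in all 4 cows.

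ACACA, the enzyme of the first committed step, and DGAT1, that of the last, were too shallow for changes of moderate size to be detected. ACACA had 10, 5 and 8 reads in cows 2, 3 and 4 before DEX, and between 3 and 9 in their later libraries. Its normalized counts in these cows were 2.195, 1.504 and 4.63 before DEX, 1.54, 1.64 and 1.20 after 12 h, 1.65, 1.28 and 1.62 after 24 h and 1.22, 1.08 and 1.46 after 72 h. The later values lay close together, and 1 of the 3 cows stood well above them at the start. The mean was 2.78 ± 1.64, 1.46 ± 0.23, 1.52 ± 0.206 and 1.26 ± 0.192 (SD, n = 3 cows) at 0, 12, 24 and 72 h. The highest value, 4.63 in cow 4 at 0 h, came from 8 reads in the shallowest library. Cow 1 held no ACACA read at 0 h, which allows up to 0.767 normalized counts, and 10 reads at each of 12 and 24 h.

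The log2 fold changes of ACACA at 12, 24 and 72 h were -0.63, -0.59 and -0.79, with adjusted p-values of 0.56, 0.631 and 0.779 in limma. Their 95% intervals ran from -1.56 to 0.29, from -1.51 to 0.33 and from -1.71 to 0.13. With cow 1 added the values at 12 and 24 h turned to 0.08 and 0.09. Its libraries at 72 h lay below those at 0 h without overlap in cows 2 to 4, as did 3.84% of all genes tested.

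DGAT1 had 3, 3 and 0 reads in cows 2, 3 and 4 before DEX, 6, 3 and 1 after 12 h, 6, 4 and 4 after 24 h and 0, 2 and 2 after 72 h. Pooled over these cows its level was 0.624 normalized counts at 0 h (95% exact Poisson interval 0.229 to 1.36), 0.694 at 12 h (0.333 to 1.28), 1.01 at 24 h (0.553 to 1.7) and 0.292 at 72 h (0.0796 to 0.748). The intervals of neighbouring times overlap. A library with no DGAT1 read allows up to 1.74 normalized counts in cow 4 at 0 h and 1.22 in cow 2 at 72 h, which is above most of the values measured. The log2 fold changes at 12, 24 and 72 h were 0.27, 0.69 and -0.38, with adjusted p-values of 0.854, 0.586 and 0.881 in limma. Between 24 h and 72 h it was -1.07 (unadjusted p = 0.0351, adjusted p = 0.285 in limma), and 3 of 3 cows were lower without overlap, as were 8.58% of all genes tested.

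At 72 h against 0 h, 0 of 5 members passed the threshold in limma, as did 0.0% of the 13525 genes. At an unadjusted p under 0.05 there were 0 of 5 members and 6.88% of all genes. edgeR's quasi-likelihood test also called 0 of the 5 members there, and 0.407% of all genes. DESeq2 called 0 of the 2 members for which it gave an adjusted p, and 0.163% of all genes. Between 12 h and 24 h no member was called in limma, where 0.702% of genes were, and 1 of 5, which was GPAM, had an unadjusted p under 0.05, beside 11.4% of genes. The median log2 fold change of the 5 members was -0.11, -0.59 and -0.39 at 12, 24 and 72 h, beside a median of 0 over all genes tested and of 0.07, 0.07 and 0.02 over the 2922 genes whose mean reached 10 normalized counts. Each member median is the value of 1 gene, GPAM at 12 and 72 h and ACACA at 24 h. At 24 h FASN and DGAT1 were on the other side of 0, at 0.41 and 0.69. These 3 comparisons share their 0 h libraries.

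In these counts the members did not follow a common course, though ACACA and DGAT1 had at most 10 reads per library. How far counting error set the r values of these 2 genes was not tested. Over the 12 libraries of cows 2 to 4, with each cow's mean removed, Pearson's r between pairs of members ran from -0.59 for GPAM with DGAT1 and -0.58 for FASN with SCD to 0.42 for ACACA with GPAM and 0.43 for SCD with GPAM. The r of FASN with SCD includes the 72 h library of cow 4, with the lowest FASN value (2001) and the highest SCD value (16.7). FASN and GPAM, the pair with ample reads, had an r of 0.08. Spread over time within a cow exceeded spread between cows within a time most clearly for SCD, with SDs of 1.03 and 0.43 on the log2 scale, against 0.531 and 0.477 for FASN and 0.565 and 0.474 for GPAM. In FASN most of the spread over time was that of cow 4, with an SD of 0.846 against 0.326 in cow 2 and 0.153 in cow 3. Among 2920 other genes whose mean reached 10 normalized counts, those most like the mean course of the 5 members were ENSBTAG00000016864 (r = 0.93) and ENSBTAG00000032557 (r = 0.91), and the most opposed were ENSBTAG00000021976 (r = -0.89) and ENSBTAG00000016725 (r = -0.88). For this mean course each member was scaled to the same spread, so ACACA and DGAT1, with few reads, weighed as much as FASN. These r values are a description over 12 libraries that share cows and scaling.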

How the data were processed

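Reads were cleaned with HTStream and mapped with STAR 2.6.0c to bovine genome build UMD3.1 (Ensembl release 93). The authors then counted them by gene and deposited library-scaled counts, a normalized signal. Within a library 1 read had a fixed value, and 100% of values were whole numbers of reads (tolerance 0.05 reads), which were recovered. The 5 members and all lists were chosen with earlier results of these data known. Lists of other lipid genes and of cell type markers, written by symbol, could not be applied, because the annotation table (RefSeq, ARS-UCD2.0) has 0 rows with an Ensembl identifier. No sequences or coordinates are given for the same reason. Columns matched samples through their labels.

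limma 3.58.1 (R 4.3.3; lmFit, eBayes with a trend) was fitted to log2(normalized count + 0.5) in the complete set of 12 libraries (cows 2, 3 and 4), with time as the factor and duplicateCorrelation for cow, in all 6 pairs of time points, at a threshold of 0.05. Cow numbers pair the samples, since libraries of a cow come from 1 animal. Deviations from time point means correlated above 0.1 in 18 of 18 pairs (lowest r 0.209, 2922 genes), and the consensus correlation was 0.0179. There were 17 alternatives set in advance, with edgeR 4.0.16 and DESeq2 1.42.0 among them, and 1 chosen after seeing the data. Scripts were tested on simulated data. Named genes were the members and, where no names could be paired, the 2 identifiers most like and the 2 most opposed to their mean course. Single values per cow were tested with exact two-sided sign-flip tests, which cannot go below 0.25 with 3 cows or 0.125 with 4. Limits for 0 reads use 3 reads.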

Additional observations from a re-analysis of the deposited data

Results flagged for a closer look

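Among the 15 groups of 4 libraries examined (5 genes at 0, 12 and 24 h), 1 held a library far from the others. ACACA at 24 h was 1.28 normalized counts in cow 3, against 1.62 to 1.68 in the other cows, and the gap was 0.855 of the whole range, above the critical value of Dixon's test for 4 samples. It rests on 6 reads, and chance alone flags about 1 in 20 groups.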

How the results depend on the processing

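Single-gene values kept their direction and side of the threshold in 480 cases over the 17 alternatives set in advance and 1 added later. A DESeq2 value without an adjusted p was counted here as not past the threshold. This was so for ACACA, SCD and DGAT1 in some comparisons. In 12 cases the values newly passed the threshold, in 10 they no longer did, and in 20 the direction turned, none past the threshold. The cause of these shifts was not tested. At 24 h against 0 h, 2 members instead of 1 were called (SCD and GPAM) with cow as a fixed block, with all 15 libraries, with totals without the 20 most abundant genes, with limma-voom, edgeR and DESeq2, and without the 72 h library of cow 4. These settings called between 2.51% and 4.66% of all genes there, against 2.31% as reported. At 12 h the count was 0 with a constant prior variance, which called 3.13% of all genes, against 3.88% as reported. Where the lowest mean allowed was 10 normalized counts it was 0 at 12 h, from 12 h to 72 h and from 24 h to 72 h, since SCD was not tested there. That setting called 16.4%, 17.1% and 20.6% of the genes it tested in these comparisons. Without the 72 h library of cow 4 the count was 0 from 12 h to 72 h, with 2.77% of all genes called, against 3.62% as reported. From 12 h to 24 h edgeR and DESeq2 each called 1 member (GPAM), and 3.98% and 2.33% of all genes, against 0.702% as reported. From 24 h to 72 h edgeR called 3 members (FASN, GPAM and SCD) and 7.3% of all genes, against 3.56% as reported. Leaving out a cow moved the count between 0 and 1 in the comparisons of 12 and 24 h with 0 h and with 72 h. These fits called 1.29% to 1.56% of all genes at 12 h and 0.601% to 0.759% at 24 h, against 3.88% and 2.31% as reported. From 12 h to 72 h they called 1.39% to 1.67%, against 3.62% as reported. From 24 h to 72 h it was 0.793% to 1.36%, against 3.56%. The block changed no other call.

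With all 15 libraries ACACA turned to 0.08 at 12 h and 0.09 at 24 h, and FASN to -0.13 at 24 h and -0.18 from 12 h to 24 h. Quantile normalization turned FASN at 72 h to 0.03 and GPAM at 12 h to 0.09. Totals without the 20 most abundant genes turned FASN at 12 h to -0.02 and ACACA from 12 h to 24 h to -0.01, and moved the median log2 fold change of the 2922 genes whose mean reached 10 normalized counts from -0.0247 to 0.1538 between 24 h and 72 h and from -0.0378 to 0.0719 between 12 h and 72 h. limma-voom turned DGAT1 at 12 h to -0.03. Leaving out each cow in turn gave FASN between -0.04 and 0.22 at 12 h, between -0.68 and 0.10 at 72 h and between -0.90 and 0.06 from 12 h to 72 h. It gave GPAM between -0.61 and 0.04 at 72 h and between -0.52 and 0.06 from 12 h to 72 h, DGAT1 between -1.0 and 0.04 at 72 h, and ACACA between -0.10 and 0.20 from 12 h to 24 h. The turn came without cow 2 for FASN at 12 h and DGAT1 and without cow 4 otherwise. Without the 72 h library of cow 4 alone, FASN was 0.11 and 0.03 and GPAM 0.01 and 0.12 at 72 h against 0 h and against 12 h.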
